A study of Mus musculus with 2 samples.

Results

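Venous endothelial cells of the mouse heart were chosen by their transcripts, as barcodes that passed an endothelial gate and held UMIs (unique molecular identifiers, each standing for 1 counted RNA molecule) of at least 3 of 6 venous marker genes, Nr2f2, Vwf, Cysltr1, Ptgs1, Col13a1 and Slco2a1. The gate asked for a UMI sum of at least 4 over Pecam1, Cdh5, Egfl7 and Cldn5 that was also above the sum over the fibroblast genes Pdgfra, Dcn, Col1a1 and Col3a1. Barcodes with UMIs of 2 or more of the endocardial genes Npr3, Cytl1 and Smoc1, or of 2 or more of the lymphatic genes Prox1, Lyve1 and Mmrn1, were left out. The rule found 559 venous members among 6235 gated endothelial cells and 9092 cells of all types. In the library of db/+ mice 310 of 3402 gated cells were members, a share of 9.11% (exact binomial 95% interval 8.17 to 10.1%). In the library of db/db mice 249 of 2833 were members, a share of 8.79% (7.77 to 9.89%), so the intervals of the shares overlapped.

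The study measured hearts of mice that carried 1 copy of the db allele of the leptin receptor gene (db/+) and of mice that carried it on both copies (db/db) and were given 1% salt. Every group thus carried db, no treatment label was given for db/+, and genotype and salt cannot be told apart. Male hearts, 4 per genotype, were depleted of cardiomyocytes and of CD45+ leukocytes before droplet capture with a 10x Genomics 3′ kit; the sources used here give no age. Each group is 1 library, the sources do not say whether hearts were pooled, and no cell can be assigned to an animal. The values below therefore compare 2 libraries, with no replicate check and no test between the groups, and every interval covers counting error only.

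Venous endothelium lines the vessels that collect blood from capillary beds, and its identity is maintained by the transcription factor Nr2f2, which represses arterial Notch signalling. Venules, more than arterioles or capillaries, are the site where circulating leukocytes attach and leave the blood, through adhesion molecules such as Vcam1, Icam1 and the selectins. In the heart these cells sit between a dense capillary bed and the larger coronary veins, and they store von Willebrand factor for haemostasis.

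The members gave 4081490 UMIs in the db/+ library and 3375373 in the db/db library, of 44935235 and 40974634 over all deposited barcodes. Members had a median of 10920.5 and 11450 UMIs per cell, against 5517 and 5540.5 in the other gated endothelial cells, a ratio of 1.98 and 2.07. A cell needs UMIs of several markers to be a member, and members were deeper than other cells, so shares of cells are given below also after each cell was thinned to 1500 UMIs. The libraries shared 7 barcode sequences, 0 of them in members. Scrublet, a doublet caller, marked 64 of 4948 and 50 of 4144 cells and 0 members. Levels are UMIs summed over a cell group and scaled to its total (CPM) with exact Poisson 95% intervals, and are compared within a gene, since 3′ tags do not rank genes against each other.

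Members with mural cell markers stood apart. Mural cells, the smooth muscle cells and pericytes wrapped around vessels, are a separate lineage, but 22 members in the db/+ library (7.10%) and 24 in the db/db library (9.64%) had at least 3 of 5 smooth muscle markers or at least 3 of 7 pericyte markers. Their median depth was 22948.5 and 21838 UMIs, above that of the other members (10058 and 9880). They held 97.0% and 98.3% of all smooth muscle UMIs of the members, and 93.6% and 95.8% of all pericyte UMIs. The same markers chose these cells, so high shares follow in part from the choice. Of these members 12 and 19 also had at least 3 of 6 arterial markers. In the db/db library 1 further barcode held 7384 of the members' 7419 haemoglobin UMIs. Results that move with these members are given with and without them, an alternative that was chosen after seeing the data.

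The 6 markers of the rule set the membership, so their levels are a description. Nr2f2 (chr7:70351944-70366735, minus strand, GRCm38), the factor of venous identity, stood at 269 CPM (253 to 285) and 291 CPM (273 to 310.0) in the db/+ and db/db members, the order in which pairs of values are given throughout. Vwf, which encodes the clotting protein von Willebrand factor, stood at 363 CPM (344 to 382) and 295 CPM (277 to 314). Ptgs1, the cyclooxygenase that makes the precursor of prostanoids, stood at 178 and 182 CPM, and Slco2a1, the prostaglandin transporter, at 74.7 and 87.4 CPM. Cysltr1, a receptor for cysteinyl leukotrienes, stood at 127 CPM (116 to 138) and 94.8 CPM (84.7 to 106), and Col13a1, a transmembrane collagen, at 42.1 and 42.4 CPM. Vwf and Cysltr1 had the largest differences of the 6 markers between the libraries, at log2 ratios of -0.29 and -0.39. None of the 6 differed by 1.5-fold, beside 1.63% higher and 2.24% lower of 6574 measured genes, so this does not set the markers apart.

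**Figure D1:**
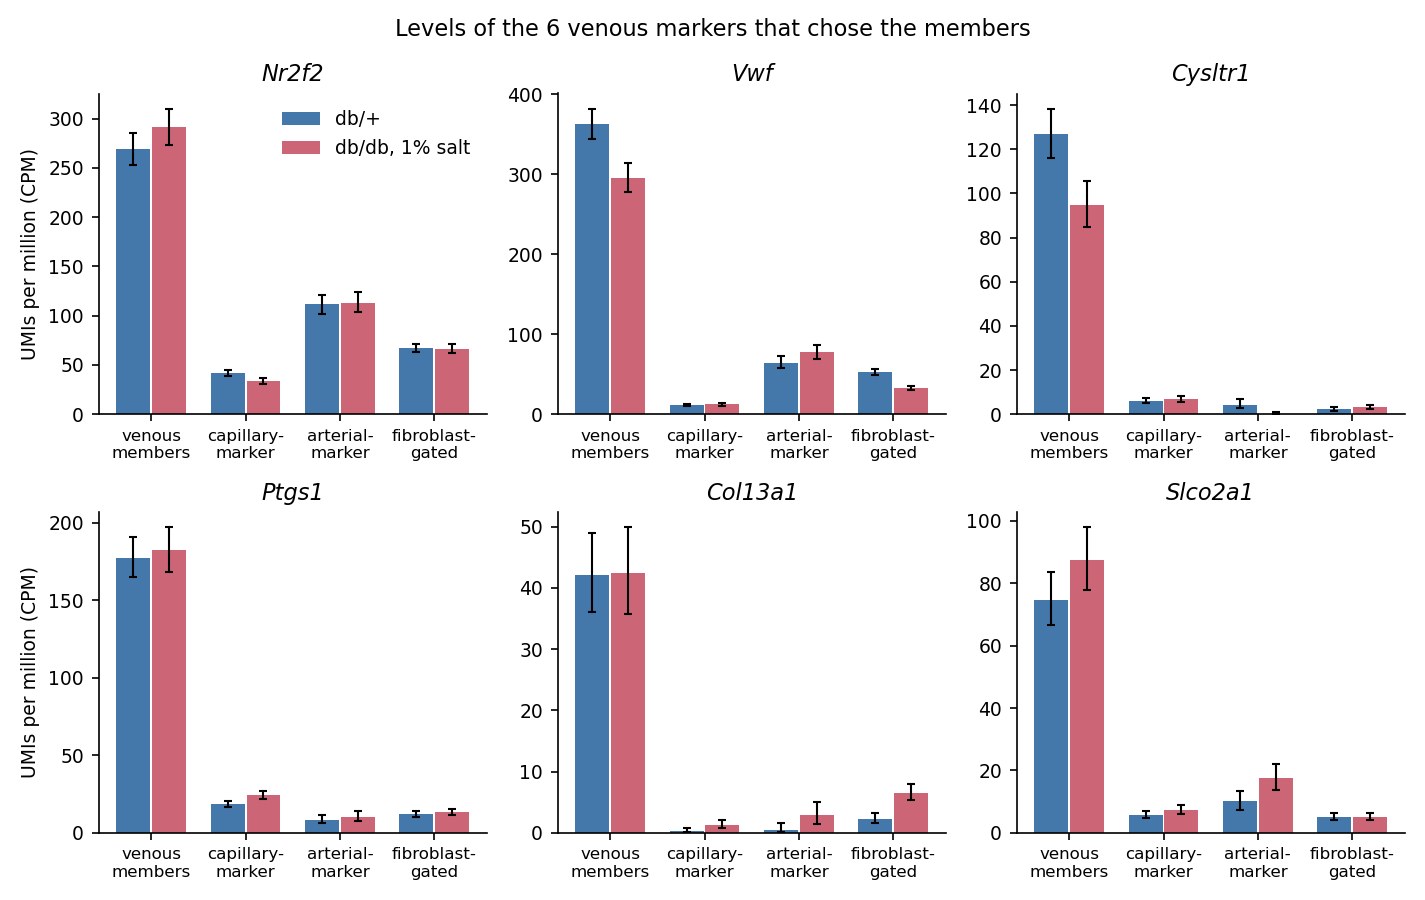
Levels (CPM, linear axis from 0) of the 6 genes that chose the members, in venous members, capillary-marker, arterial-marker and fibroblast-gated cells, with 1 bar per library and exact Poisson 95% intervals as error bars. Members are high by the rule itself; Nr2f2 was also read at 111 and 113 CPM in arterial-marker cells and Vwf at 52.8 and 32.6 CPM in fibroblast-gated cells.

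How often a member showed each marker differed with depth. Nr2f2 UMIs were found in 89.0% and 91.6% of the db/+ and db/db members and Col13a1 UMIs in 33.9% and 34.5%. At 1500 UMIs per cell, which left out 3 and 0 members, the shares were 32.6% and 33.7% for Nr2f2 and 9.45% and 10.0% for Col13a1. The same members thus showed each marker less often when read at a lower depth. Vwf UMIs were found in 75.5% and 67.5% of members, and in 41.4% and 28.1% after thinning. In fibroblast-gated cells, whose median depth was 9635.5 and 11993 UMIs, the share with a UMI was 3.92% and 3.83% for Vwf but 35.0% and 43.0% for Nr2f2, so an Nr2f2 UMI alone does not set a venous cell apart. At least 3 of the 6 markers were found in 37 of the 1402 (2.64%) and 35 of the 1227 (2.85%) fibroblast-gated cells, the background of the rule.

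The label was checked on 22 venous genes that the rule did not use, of which 16 were measured, meaning a mean of at least 20 CPM over the sets compared. Of these, 7 were at least 1.5-fold higher in members than in the other gated endothelial cells in both libraries and 0 were lower, beside 1.91% higher and 1.18% lower of 6509 genes measured in that comparison. The rule used the same contrast, so nothing is read from these shares. Ephb4, the venous receptor for the arterial ligand ephrin-B2, stood at 265 and 281 CPM against 153 and 177 CPM in the others. Bgn, a matrix proteoglycan, stood at 152 and 118 CPM against 47.5 and 59.9 CPM, and Il1r1, the interleukin-1 receptor, at 76.7 and 76.4 CPM against 35.0 and 38.7 CPM. Genes known to mark postcapillary venules gave few UMIs and were under the level limit. Over all members Ackr1, a chemokine-binding receptor of venules, gave 25 and 3 UMIs, Sele (E-selectin) 27 and 3 UMIs and Selp (P-selectin) 75 and 22 UMIs. In db/+ Selp stood at 18.4 CPM in members and 0.334 CPM in the other gated cells, Ackr1 at 6.13 and 0.0418 CPM and Sele at 6.62 and 1.13 CPM. In db/db Selp stood at 6.52 and 1.18 CPM, Ackr1 at 0.889 and 0.0512 CPM and Sele at 0.889 and 1.02 CPM. All 3 genes thus had higher levels in members in db/+, as did Selp in db/db, where Ackr1 and Sele rest on 3 UMIs each and no direction is read.

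Members also carried capillary transcripts. At least 3 of 6 capillary markers were found in 92.9% of the db/+ members and 92.8% of the db/db members. Fabp4 and Cd36, which carry fatty acids in cardiac capillaries, stood at 23034 and 23247 CPM against 20402 and 21315 CPM and at 3543 and 4097 CPM against 3514 and 4364 CPM, in members against the other gated cells. Of 12 capillary markers, Car4 and Rgcc were at least 1.5-fold lower in members in both libraries and Aqp1, a water channel, was higher. Of 15 arterial markers measured, 6 were lower, among them Hey1, Dll4 and Efnb2 of the Notch pathway, and Vegfc was higher. The cells are therefore called venous here by the markers of the rule, and the data do not show them to lack capillary transcripts.

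Within the members, Lhx6 and Prss23, which are described here because they were among the genes highest in members against other endothelium, differed with the number of rule markers. In the db/+ library 128, 91, 63 and 28 members had 3, 4, 5 and 6 markers, and in the db/db library 109, 77, 42 and 21. Median depth had no such order: it was 11107.5, 9609, 10037 and 12754 UMIs in db/+ and 12091, 9786, 11212 and 15296 UMIs in db/db. Lhx6, a homeobox transcription factor, stood at 62.2, 110.1, 138 and 193 CPM from 3 to 6 markers in db/+, and at 59.8, 110.4, 103 and 212 CPM in db/db. Prss23, a secreted serine protease, stood at 40.0, 151, 291 and 390.3 CPM in db/+ and at 41.0, 123, 255 and 337 CPM in db/db. Both were thus higher at 6 markers than at 3 in each library, with Lhx6 lower at 5 markers than at 4 in db/db. Of the listed venous genes, Plvap, a protein of endothelial pores, stood at 0.555, 39.5, 43.6 and 39.0 CPM in db/+, and Ackr1 at 0, 3.67, 26.9 and 0 CPM, so neither followed the number throughout.

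Some capillary and arterial genes ran the other way and others did not. Car4, Btnl9 and Hey1 are described because they were among the genes lowest in members against other endothelium. The rule set that contrast and the number of markers, so the order of these levels is a description only. Car4, a carbonic anhydrase of capillaries, stood at 150.4, 92.7, 91.0 and 31.7 CPM from 3 to 6 markers in db/+ and at 167, 137, 129 and 92.0 CPM in db/db. Btnl9, a butyrophilin-like gene, stood at 191, 112, 73.1 and 58.5 CPM in db/+. In db/db it stood at 258, 136, 138 and 52.1 CPM, not a fall at each step. Hey1, a Notch target of arterial cells, stood at 40.5, 11.9, 5.13 and 0 CPM in db/+ and at 98.0, 22.3, 8.73 and 3.07 CPM in db/db. Cd36, a capillary fatty acid transporter, did not run down, at 3370, 3642, 3722 and 3701 CPM in db/+ and 3821, 4225, 4238 and 4724 CPM in db/db. Among the members, Hey1 was thus highest in those with 3 markers, which also held 14 of the 22 and 18 of the 24 members with mural markers. Just outside the rule, 295 and 251 gated cells had exactly 2 markers, with median depths of 10905 and 12256 UMIs. In them Lhx6 stood at 28.7 and 33.0 CPM and Hey1 at 113 CPM in both libraries. The Lhx6 level outside the limit was thus below that at 3 markers, and the Hey1 level above it, in both libraries.

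**Figure D2:**
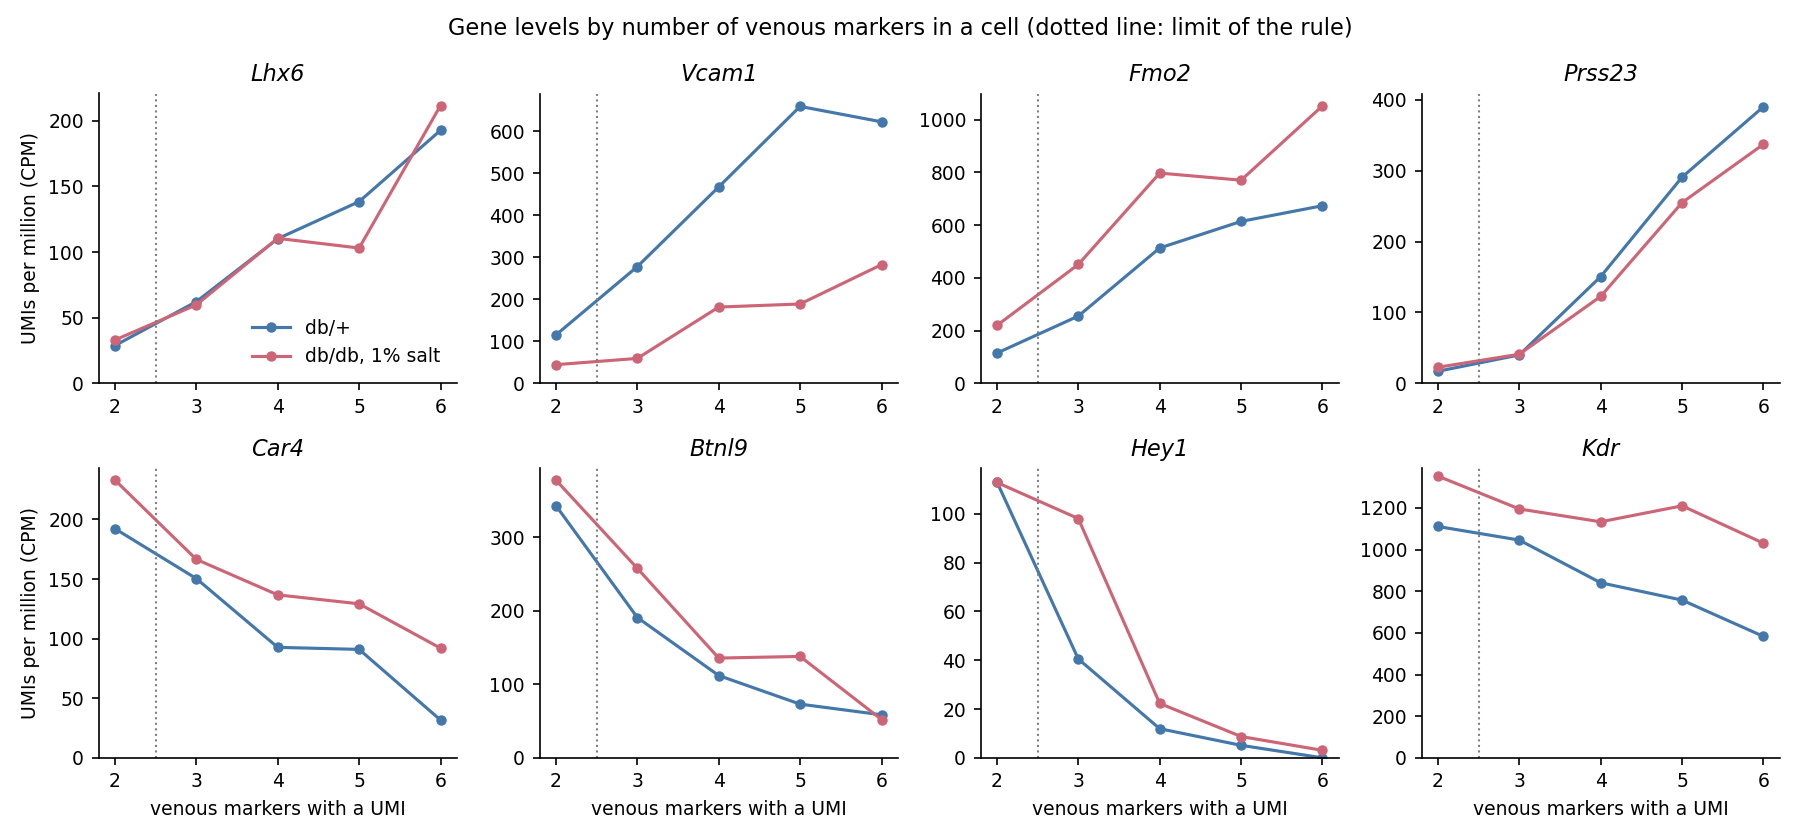
Levels (CPM, linear axes from 0) of 8 genes in gated endothelial cells with 2 to 6 venous markers, with 1 line per library; the dotted line is the limit of the rule, and points are sums over cells with no error drawn. Lhx6 reaches 193 and 212 CPM at 6 markers, with Vcam1, Fmo2 and Prss23 also higher there than at 2, while Car4, Btnl9, Hey1 and Kdr are lower.

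Members differed from the other gated endothelial cells by at least 1.5-fold in both libraries for 124 genes that were higher (1.91% of 6509 measured) and 77 that were lower (1.18%). The rule compared the same cells, so these genes describe the members and support nothing. Ranked by the weaker of the 2 libraries, and with the genes of the rule left out, the first gene was Rasa4, a Ras GTPase activator, at 127 and 105 CPM against 19.4 and 15.3 CPM. Samd5 stood at 151 and 162 CPM against 26.7 and 31.3 CPM, and Vcam1, an adhesion molecule for leukocytes, at 436 and 138 CPM against 67.3 and 27.4 CPM. Fmo2, a flavin monooxygenase, stood at 434 and 664 CPM against 77.1 and 164 CPM. All of these are levels in members against levels in the other gated cells. Lhx6 and Prss23 were among the leading 10 too, as was Eln (elastin), at 212 and 245 CPM against 35.5 and 64.5 CPM. Igf1, a growth factor, stood at 74.7 and 69.9 CPM against 12.9 and 14.0 CPM, and Emp3 and AU021092 completed the set.

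The genes lowest in members include genes known from capillaries and arteries. Gja1, the gap junction protein connexin 43, stood at 56.8 and 59.3 CPM against 199 and 210.2 CPM. Unc5b, a netrin receptor of arterial cells, stood at 36.3 and 52.7 CPM against 144 and 171 CPM. Both were lower in members in each library. Btnl9 stood at 134 and 182 CPM against 515 and 536 CPM and Rbp7, a retinol-binding protein, at 256 and 294 CPM against 665 and 659 CPM. Car4, Myo10, Kctd12b, Sept4, Alpl and Hey1 completed the lowest 10.

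Between the libraries, 107 of 6574 measured genes (1.63%) were at least 1.5-fold higher in db/db members and 147 (2.24%) at least 1.5-fold lower, as log2 ratios of CPM + 10, a scale that understates the ratio of low genes. Of the genes past that fold, 42.1% were higher with CPM scaling and 31.3% with TMM scaling (81 higher and 178 lower). The median log2 ratio of all measured genes was 0.05. The 10 genes with the lowest ratios under the naming limits of level and detection were Cd74, H2-Aa, H2-Ab1, H2-Eb1, Zbp1, H2-Q7, Ms4a4d, Igtp, Cxcl9 and Iigp1. The 10 with the highest, among which haemoglobin genes were not counted, were led by Cyp26b1, an enzyme that degrades retinoic acid, and included Igfbp3 and Igfbp5, insulin-like growth factor binding proteins. Without the members that carried mural markers or haemoglobin, 56 of the 107 higher genes and 135 of the 147 lower genes were again past the fold. Without the class II-positive members described below, 71 of the 107 higher and 89 of the 147 lower genes were. Ratios in capillary-marker and arterial-marker cells are given below for some of the lists and genes, and differences between the cell classes were not tested.

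**Figure D3:**
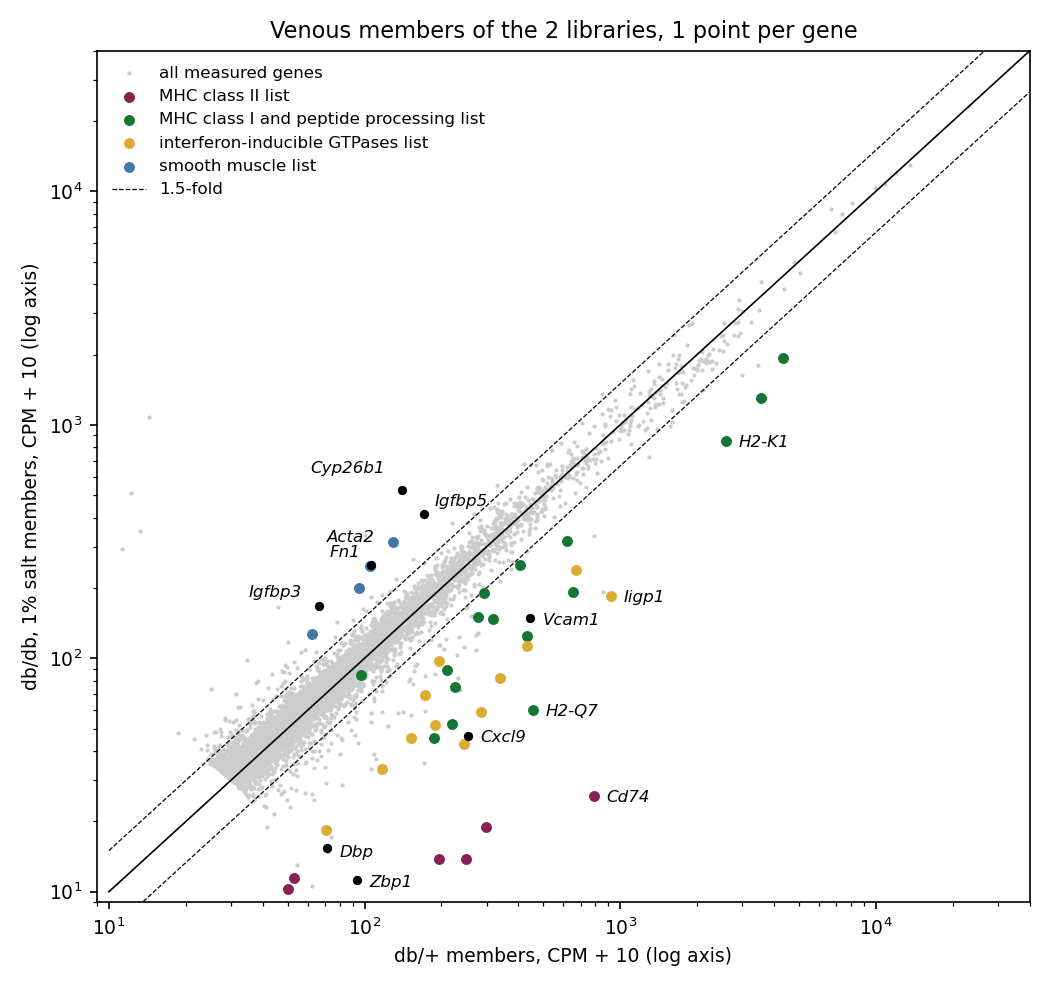
Each point is 1 of 6574 genes in venous members, at its level plus 10 CPM in db/+ (x, log axis) and in db/db with 1% salt (y, log axis); the solid line is equality and the dashed lines 1.5-fold. Class II and GTPase genes lie below the lines, as do the class I genes other than Erap1, Cyp26b1 (129.6 and 516 CPM before adding 10) lies above them with the smooth muscle genes, and the 4 points far above at the left are haemoglobin genes.

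MHC class II genes, which present peptides of engulfed proteins to CD4+ T cells, had the lowest median of the lists in db/db members. All 6 measured genes were at least 1.5-fold lower, with a median log2 ratio of -3.90. The median was -2.14 in capillary-marker cells, where 1 gene was measured, and -2.68 in arterial-marker cells, where 4 were. Cd74, the invariant chain that chaperones class II molecules, stood at 777 CPM (751 to 805) and 15.7 CPM (11.8 to 20.5), a log2 ratio of -4.94 (-5.26 to -4.63). H2-Ab1 stood at 288 and 8.89 CPM, H2-Aa at 238 and 3.85 CPM and H2-Eb1 at 186 and 3.85 CPM. These genes encode chains of the class II molecules themselves. H2-DMa and H2-DMb1, which load the peptides, stood at 42.9 and 1.48 CPM and at 40.2 and 0.296 CPM, where the last value is 1 UMI and the H2-DMb1 log2 ratio was -2.29 (-2.85 to -1.76). Ciita, the master activator of class II transcription, was under the level limit with 61 and 3 UMIs.

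The class II UMIs came from a subset of the members. At least 2 of Cd74, H2-Aa, H2-Ab1 and H2-Eb1 were detected in 129 of 310 db/+ members, 41.6% (36.1 to 47.3%), and in 6 of 249 db/db members, 2.41% (0.889 to 5.17%). At 1500 UMIs per cell the shares were 29.3% (24.3 to 34.8%) in db/+ and 0 of 249 cells in db/db, which allows a share of up to 1.20% (3 of 249) of cells with such UMIs at that depth. This limits detection in thinned cells, not the share of cells that carry the transcripts. The thinned and unthinned shares gave the same order. In fibroblast-gated cells, which should lack these genes, the share was 2.14% and 0.652%, and 1.02% and 0.165% after thinning. The share in db/+ members thus stood above this background at either depth, and that in db/db members was not distinguishable from it after thinning.

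Capillary-marker cells were positive at 5.47% and 0.192%, and arterial-marker cells at 24.3% and 4.63%. Positive db/+ members held 99.3% of the 6078 class II UMIs of that library's members, a share that follows in part from choosing them by these genes. The lowest, median and highest were 2, 33 and 313 UMIs per positive cell, and 98 of the 129 had UMIs of all 4 genes. No class II UMI was found in 149 db/+ members and in 237 db/db members. Class II transcripts were thus present in many copies in some db/+ members and at 0 in others of the same library.

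The few class II UMIs of the db/db members were mostly in members with mural markers. The members with mural markers or haemoglobin held 100 of 109 class II UMIs, and 5 of the 6 positive members had mural markers, against 10 of 129 in db/+. Without these members, Cd74 gave 2973 UMIs (838 CPM) in db/+ and 0 UMIs in db/db, at least 780-fold higher in db/+ when 3 UMIs over the group stand for the count of 0. H2-Eb1 gave 709 and 0 UMIs, at least 186-fold higher in db/+, while H2-Aa gave 905 and 4 UMIs and H2-Ab1 1099 and 5. Markers of leukocytes, which carry class II in the heart, gave few UMIs. Of 10 such markers, C1qa, C1qb, Csf1r, Tyrobp and S100a8 were at 0 in the members of each library, Ptprc gave 10 and 1 UMIs, and the summed level was 8.58 and 1.48 CPM.

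**Figure D4:**
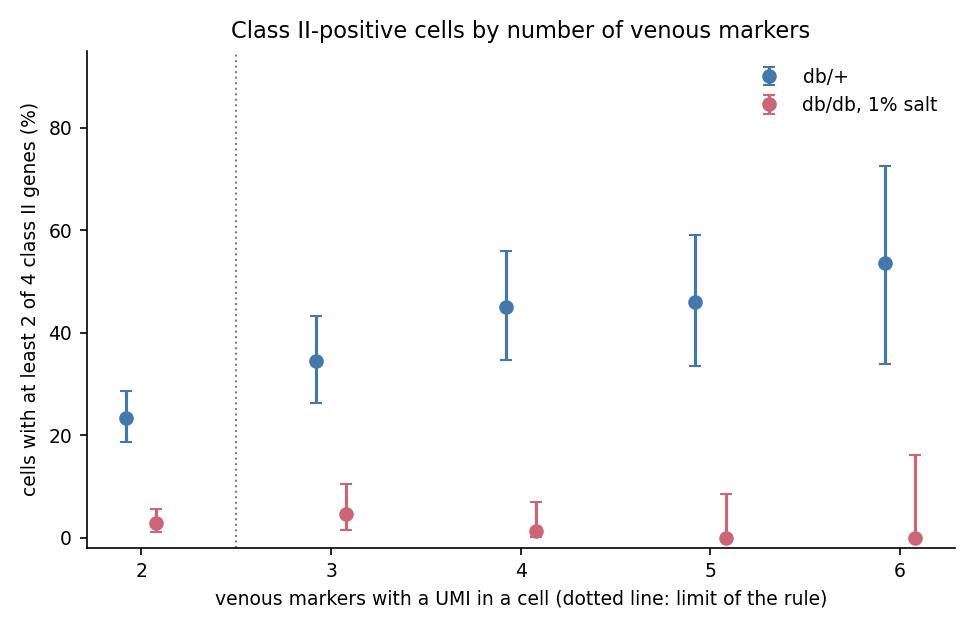
Share (%) of gated endothelial cells with UMIs of at least 2 of 4 class II genes, by the number of venous markers in the cell and by library, with exact binomial 95% intervals; the dotted line is the limit of the rule. In db/+ the share was 34.4%, 45.1%, 46.0% and 53.6% at 3, 4, 5 and 6 markers with overlapping intervals, and in db/db it was 4.59%, 1.30%, 0% and 0%.

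Class II-positive and other members of the db/+ library were set side by side, as a description, since class II genes chose the positive cells. The 129 positive members had a median of 12159 UMIs and the other 181 a median of 9454. All 14 interferon-inducible GTPase genes measured there were at least 1.5-fold higher in the positive members, with a median log2 ratio of 1.20, as were 15 of 17 class I genes (0.84). Over all 6449 genes measured, 176 were higher and 89 lower, with a median of -0.02. Vcam1 stood at 614 and 286 CPM in positive and other members, Ltc4s, which makes leukotriene C4, at 113 and 35.2 CPM, and Cyp26b1 at 196 and 73.5 CPM. The rule markers Nr2f2 (292 and 249 CPM) and Vwf (365 and 361 CPM) were within 1.5-fold between positive and other members. Of 17 venous genes outside the rule, 6 were higher and 2 lower in positive members. Of 12 capillary markers 0 were higher and 4 lower, and of 13 arterial markers 4 were higher and 2 lower. Car4 stood at 63.8 and 152 CPM. Leaving out positive members thus also changes these levels, and their part in the values without such members was not tested. Smooth muscle genes were also higher in positive members, for 4 of 4 genes with a median log2 ratio of 0.98, and their part in these values was not tested.

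MHC class I genes, which display peptides from inside the cell to CD8+ T cells, were lower in db/db members for 15 of 16 measured, with a median log2 ratio of -1.34. The heavy chain H2-K1 stood at 2575 and 844 CPM and H2-D1 at 4339 and 1929 CPM. B2m, the light chain shared by class I molecules, stood at 3540 and 1286 CPM. Chains and light chain were thus lower together, at log2 ratios of -1.60, -1.17 and -1.45. H2-Q7 stood at 445 and 50.1 CPM and H2-Q6 at 209.7 and 42.4 CPM, but the H2-Q genes are near-identical and their split between copies is uncertain. Tap1, the transporter that brings peptides to class I, stood at 177 and 35.6 CPM, and Psmb9, a subunit of the immunoproteasome that cuts them, at 420.4 and 114 CPM. Erap1, which trims the peptides, was the exception, at 86.7 and 74.7 CPM. The list median was -1.32 without mural and haemoglobin members, and -0.86 without the class II-positive members, where 11 genes were lower. In capillary-marker cells it was -1.09 and in arterial-marker cells -1.07.

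Interferon-inducible GTPases, which attack the membranes around intracellular microbes, were lower in db/db members for all 12 measured of 15 listed, with a median log2 ratio of -1.90. Gbp2 stood at 421 and 103 CPM, Gbp3 at 274 and 48.6 CPM, Gbp4 at 328 and 72.6 CPM and Gbp7 at 659 and 229 CPM. Igtp stood at 236 CPM (221 to 251) and 32.9 CPM (27.1 to 39.6) and Irgm1 at 162 and 59.5 CPM. Iigp1 stood at 908 CPM (879 to 938) and 175 CPM (161 to 189.8). The Poisson intervals of Igtp and of Iigp1 did not overlap between the libraries. Reads of near-identical family members may be split between copies, so the value of a single Gbp or Irg gene is less certain than the shared direction. The list median was -1.63 in capillary-marker cells and -1.52 in arterial-marker cells. Within the members it was -1.95 without mural and haemoglobin members and -1.12 without class II-positive members.

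Promoters of 6 interferon-inducible genes that were lower together are shown, to set their motifs beside the levels. Each line gives the 150 bases before the transcript start of the RefSeq table (GRCm38.p6), 5′ to 3′ on the gene's strand. Capitals mark matches to the interferon-stimulated response element (ISRE, GAAANNGAAA) or the gamma-activated site (GAS, TTCNNNGAA), searched on both strands with overlaps kept. The windows are Gbp2 at chr3:142620513-142620662 (plus strand), Gbp3 at chr3:142559894-142560043 (plus strand), Gbp5 at chr3:142496784-142496933 (plus strand), Igtp at chr11:58199406-58199555 (plus strand), Irgm1 at chr11:48871421-48871570 (minus strand) and Isg15 at chr4:156200819-156200968 (minus strand).
Gbp2: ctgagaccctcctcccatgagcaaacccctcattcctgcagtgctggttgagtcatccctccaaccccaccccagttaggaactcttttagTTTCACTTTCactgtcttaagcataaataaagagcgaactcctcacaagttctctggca
Gbp3: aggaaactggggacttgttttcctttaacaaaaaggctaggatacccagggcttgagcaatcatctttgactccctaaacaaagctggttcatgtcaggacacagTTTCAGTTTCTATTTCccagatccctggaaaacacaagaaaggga
Gbp5: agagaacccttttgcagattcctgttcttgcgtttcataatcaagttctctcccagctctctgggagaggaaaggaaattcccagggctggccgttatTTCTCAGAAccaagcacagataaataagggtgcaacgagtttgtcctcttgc
Igtp: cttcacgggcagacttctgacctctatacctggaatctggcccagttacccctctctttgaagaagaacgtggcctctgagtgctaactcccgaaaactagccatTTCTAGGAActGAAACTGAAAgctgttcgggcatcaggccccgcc
Irgm1: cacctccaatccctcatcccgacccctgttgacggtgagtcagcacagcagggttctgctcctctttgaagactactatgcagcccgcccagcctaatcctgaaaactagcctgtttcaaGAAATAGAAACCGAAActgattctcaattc
Isg15: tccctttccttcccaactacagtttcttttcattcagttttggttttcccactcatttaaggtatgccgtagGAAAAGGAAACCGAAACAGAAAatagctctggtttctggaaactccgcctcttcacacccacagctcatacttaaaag
Gbp2 holds 1 ISRE match and Gbp5 1 GAS match in these bases. Igtp holds a GAS and an ISRE side by side, and in Gbp3, Irgm1 and Isg15 the 2, 2 and 3 ISRE matches overlap into a run. Gbp3 has another window in the table, at chr3:142560206-142560355 (plus strand), which is not shown and holds neither motif.

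Over windows of 300 bases, from 250 before to 50 after the start, an ISRE was found in 8 of the 9 GTPase genes with a window (88.9%), beside 1079 of 27025 genes of the table (3.99%). A GAS was found in 5 of the 9 (55.6%), beside 2582 genes of the table (9.55%). The type I interferon genes that were lower held an ISRE in 5 of 11 (45.5%) and the class I genes in 3 of 14 (21.4%). In the 4 class II genes with a window neither set of letters was found, which says only that these letters are not in that window. A match is a run of letters, and no binding was measured.

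Type I interferon genes, an antiviral program that most cells share, were lower in db/db members for 16 of 23 measured of 27 listed, with a median log2 ratio of -0.996. Isg15, a ubiquitin-like modifier, stood at 227 CPM (213 to 242) and 62.8 CPM (54.6 to 71.9). Bst2, or tetherin, which holds budding virus at the cell surface, stood at 847 and 181 CPM, and Ifi27l2a at 161 and 25.8 CPM. Zbp1, a sensor of Z-form nucleic acid, had the lowest ratio of the list, with 339 and 4 UMIs (83.1 and 1.19 CPM). Other genes of the program were within 1.5-fold, with Rsad2 at 355 and 252 CPM and Ddx58, an RNA sensor, at 106 and 79.1 CPM. Ifit3 and Ifit3b are near copies of each other, and their separate values are uncertain; Ifit3 stood at 142 and 47.1 CPM. The list median was -0.73 in capillary-marker and -0.64 in arterial-marker cells, and -0.68 without class II-positive members.

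Upstream of these genes, the receptors were within 1.5-fold. Ifngr1 and Ifngr2, the receptor chains for interferon gamma, stood at 326 and 249 CPM and at 54.1 and 52.7 CPM. Ifnar1 and Ifnar2, those for type I interferon, stood at 52.2 and 66.1 CPM and at 103 and 93.6 CPM. Irf1, Stat2 and Irf9, transcription factors that interferon itself is known to induce, were past the fold and lower in db/db. Irf1 stood at 185 and 104 CPM, Stat2 at 96.3 and 48.3 CPM and Irf9 at 107 and 62.2 CPM. The kinase Jak1 (251 and 231 CPM) was within 1.5-fold.

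Leukocyte adhesion and chemokine genes were lower for 8 of 17 measured of 24 listed, with a median log2 ratio of -0.46. Vcam1 (chr3:116109949-116129688, minus strand), the ligand for the leukocyte integrin VLA-4, stood at 436 CPM (416 to 456) and 138 CPM (126 to 151), a log2 ratio of -1.59 (-1.73 to -1.44). It was found in 78.7% and 60.6% of members, and in 38.8% and 17.3% at 1500 UMIs. Both shares were lower in db/db. The Vcam1 log2 ratio was -1.10 in capillary-marker and -1.71 in arterial-marker cells. Fibroblast-gated cells carry Vcam1 too, in 65.0% and 68.4% of cells, so they give no background for it. Icam1, the ligand for leukocyte beta-2 integrins, stood at 220.0 CPM (206 to 235) and 93.6 CPM (83.6 to 105). Icam2 (541 and 391 CPM), Esam (523 and 537 CPM) and F11r (226 and 226 CPM), which leukocytes meet at endothelial junctions, were within 1.5-fold.

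Of the chemokines, Cxcl9 and Cxcl10, which draw T cells and are known interferon gamma targets, stood at 243 and 36.4 CPM and at 62.2 and 4.74 CPM. Cxcl1, which draws neutrophils, stood at 52.4 and 16.3 CPM, a log2 ratio of -1.25, beside -0.13 in capillary-marker and 0.13 in arterial-marker cells. Csf1, the growth factor of macrophages, stood at 188 and 104 CPM, a log2 ratio of -0.79 beside -0.10 and -0.65. The Cxcl1 ratio was thus lower in members than in both other classes. The Csf1 ratio was below that of capillary-marker cells and near that of arterial-marker cells, and these differences were not tested. Cxcl16 stood at 179 and 75.5 CPM and Ccl2, which draws monocytes, at 57.6 and 28.1 CPM. Cxcl12, a homeostatic chemokine, stood at 994 and 933 CPM. The list median was -0.10 in capillary-marker cells (5 of 15 lower) and -0.15 in arterial-marker cells (4 of 14), and -0.22 without class II-positive members (5 lower).

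Of the prostanoid and leukotriene genes, 7 of 22 were measured, with a median log2 ratio of -0.14. Ltc4s (chr11:50236461-50238616, minus strand) makes leukotriene C4, from which the ligands of Cysltr1 derive, and it stood at 70.6 CPM (62.6 to 79.2) and 35.6 CPM (29.5 to 42.5). Its log2 ratio was -0.82, and 0.05 without the class II-positive members. Ptger4, a receptor for prostaglandin E2, was higher in db/db, at 14.2 and 30.5 CPM and a log2 ratio of 0.74. Ptges3, Lta4h and Cbr1 were within 1.5-fold, and Ptgs2, the inducible cyclooxygenase, gave 4 and 2 UMIs.

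Coagulation genes were within 1.5-fold. Of 10 measured of 22 listed, 0 were past 1.5-fold in either direction and the median log2 ratio was 0.00. Of all 6574 measured genes 1.63% were higher and 2.24% lower, so 0 of 10 is near the share over all genes and does not set the list apart. Thbd, the thrombin receptor that turns on protein C, stood at 345 and 390.2 CPM, and Entpd1, which breaks down the platelet agonist ADP, at 154 and 189.9 CPM. Tfpi, an inhibitor of tissue factor, stood at 41.9 and 34.4 CPM. The genes under the level limit included F8, the clotting factor that von Willebrand factor carries, with 44 and 12 UMIs.

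Cyp26b1 (chr6:84571414-84593908, minus strand), which degrades retinoic acid, had the highest log2 ratio under the naming limits, which leave out haemoglobin genes. It stood at 129.6 CPM (119 to 141) and 516 CPM (492 to 541), a log2 ratio of 1.91 (1.78 to 2.05). The ratio was 1.88 without mural and haemoglobin members and 2.69 without class II-positive members. It was found in 45.5% and 71.9% of members, against 1.85% and 6.28% of fibroblast-gated cells, and in 17.6% and 36.5% against 0.145% and 1.98% at 1500 UMIs. Shares and levels thus gave the same direction. Capillary-marker cells stood at 24.9 and 378 CPM (log2 ratio 3.47) and arterial-marker cells at 5.46 and 119 CPM (3.06). Members had the highest level of the 3 classes in each library and the lowest ratio. Of the other retinoic acid genes, Rarg, a receptor, stood at 58.6 and 88.6 CPM and Dhrs3, which turns retinal back to retinol, at 203 and 277 CPM, and Cyp26b1 was the single gene of 8 measured past the fold.

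Arterial markers were higher in db/db members for 7 of 14 measured of 16 listed, with a median log2 ratio of 0.54. Hey1 stood at 22.1 CPM (17.7 to 27.1) and 51.5 CPM (44.2 to 59.8), Gja5, or connexin 40, at 15.7 and 38.2 CPM, and Sema3g, a secreted semaphorin, at 43.1 and 86.8 CPM. Of the members with mural markers, 12 of 22 and 19 of 24 carried at least 3 of 6 arterial markers. Without them and the haemoglobin barcode, 2 of 11 measured markers were past the fold, the median was 0.27 and the Hey1 ratio was 0.60 in place of 0.94. Members with at least 3 of 6 arterial markers were 21 (6.77%) in db/+ and 35 (14.1%) in db/db. The list median was 0.28 in capillary-marker and 0.17 in arterial-marker cells. Of 12 capillary markers 1 was past the fold, Aqp1 at 1611 and 2422 CPM, which was under the fold with TMM scaling, and of 16 venous genes outside the rule 2 were, Vcam1 and Icam1, both lower.

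Vascular tone genes were within 1.5-fold for 12 of 15 measured, with a median log2 ratio of 0.11. Gucy1a1 and Gucy1b1, the subunits of the nitric oxide receptor of smooth muscle, stood at 39.0 and 83.8 CPM and at 27.7 and 68.1 CPM. Their log2 ratios of 0.94 and 1.05 were 0.23 and 0.21 without mural and haemoglobin members. Ednrb, an endothelin receptor that endothelium carries, stood at 39.7 and 81.5 CPM, with a ratio of 0.88 and 1.01 without them. Nos3, the endothelial nitric oxide synthase, stood at 149.9 and 177 CPM.

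Of 19 matrix genes measured, 3 were higher in db/db members and 1 lower, with a median log2 ratio of 0.20. Fn1, or fibronectin, stood at 96.0 CPM (86.8 to 106) and 239.7 CPM (223 to 257), a log2 ratio of 1.24 (1.07 to 1.41). That ratio was 1.36 without mural and haemoglobin members, and 0.12 and 0.06 in capillary-marker and arterial-marker cells. Fbln2, an elastic fibre protein, stood at 321 and 542 CPM and Col18a1, the source of endostatin, at 20.6 and 43.3 CPM. Col15a1, a basement membrane collagen, was lower, at 269 and 118 CPM. Eln, among the genes by which members differed from other endothelium, stood at 212 and 245 CPM. Summed fibroblast markers in members were 67.6 and 121 CPM over 8 genes, and their part in the matrix values was not tested.

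Insulin-like growth factor binding proteins, which hold IGFs outside cells, were higher for 3 of the 4 measured and lower for 1, on a list of 8 measured genes with a median log2 ratio of 0.29. Igfbp5 stood at 161 CPM (149 to 174) and 403 CPM (382 to 425) and was found in 22.9% and 38.6% of members, and in 8.47% and 20.9% at 1500 UMIs. Fibroblast-gated cells carried it in 22.5% and 29.5%, and in 11.4% and 15.6% at 1500 UMIs, so a share of cells does not set members apart for this gene. Its log2 ratio was 1.27, and 1.40 without mural and haemoglobin members, beside 0.83 in capillary-marker and 0.76 in arterial-marker cells. Igfbp3 stood at 56.6 and 158 CPM and Igfbp4 at 40.7 and 76.7 CPM, while Igfbp7 was lower, at 1585 and 1015 CPM. The ligand Igf1 (74.7 and 69.9 CPM) and the insulin receptor Insr (52.9 and 48.6 CPM) were within 1.5-fold.

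Growth factor receptors, junctions and metabolism showed few genes past the fold. Of all 6574 measured genes 1.63% were higher and 2.24% lower, so low counts do not set a list apart. Of 22 measured growth factor genes Bmp6, a bone morphogenetic protein, was higher, at 79.9 and 135 CPM, and Apln, the ligand of the apelin receptor, was lower, at 56.4 and 29.9 CPM. The VEGF receptor Kdr stood at 889 and 1164 CPM. None of 15 measured junction genes was past the fold, and their median log2 ratio was 0.10. Of 10 measured fatty acid genes Angptl4, an inhibitor of lipoprotein lipase, was lower, at 36.0 and 17.2 CPM. Of 12 glycolysis genes Hk1, a hexokinase, was higher, at 38.5 and 77.6 CPM, and Pfkfb3, which speeds glycolysis, was lower, at 38.2 and 16.9 CPM. Of 5 measured complement genes 0 were past the fold.

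Clock genes differed in opposite directions. Dbp, a clock output factor, stood at 61.5 CPM (54.1 to 69.6) and 5.33 CPM (3.16 to 8.43) and Nr1d1, a repressor of the clock, at 71.8 CPM (63.8 to 80.5) and 18.7 CPM (14.3 to 23.9). Tef and Nr1d2 were lower too, at 34.1 and 11.6 CPM and 53.7 and 24.0 CPM. Arntl, the activator that Nr1d1 represses, was higher, at 22.5 and 39.1 CPM, a log2 ratio of 0.59 that was 0.57, under the fold, without mural and haemoglobin members. The median of 8 measured clock genes was -0.67, beside -0.49 in capillary-marker and -0.30 in arterial-marker cells. The sources used here give no hour of tissue collection, and its part in these values was not tested.

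Immediate early genes, which cell isolation can induce, were within 1.5-fold for 14, with a median log2 ratio of 0.07 over 17 genes. Nr4a1 was higher, at 28.4 and 56.9 CPM, and Atf3 and Ier3 were lower, at 52.2 and 27.3 CPM and 329 and 205 CPM, with an Atf3 log2 ratio of -0.74 that was 0.03 without class II-positive members. Fos stood at 423 and 534 CPM and Klf2, a factor kept on by blood flow, at 2189 and 1976 CPM.

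Proliferation genes were lower for 4 of 7 measured of 12 listed, with a median log2 ratio of -0.60. In capillary-marker cells the median was -0.68, and in arterial-marker cells 0 of these genes were measured. Cenpf, a kinetochore protein, stood at 95.8 and 23.4 CPM, and Top2a, a topoisomerase of dividing cells, at 64.2 and 39.1 CPM. Members in which 3 or more of 8 proliferation markers were detected numbered 14 (4.52%, 2.49 to 7.46%) in db/+ and 3 (1.20%, 0.249 to 3.48%) in db/db, with overlapping intervals. These shares were not thinned, and in fibroblast-gated cells they were 1.07% and 0.244%. In capillary-marker cells they were 4.33% (3.56 to 5.21%) and 1.59% (1.10 to 2.22%), the same order as in members. Arterial-marker cells had 1.19% and 0.244%. Without mural and haemoglobin members 2 of the genes were past the fold and the median was -0.48.

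Markers of several other cell types were higher in db/db members. Over 5 smooth muscle genes the summed level was 353 and 851 CPM, and 12.1 and 17.5 CPM without the members with mural markers. Over 7 pericyte genes it was 974 and 1550 CPM, and 71.3 and 78.4 CPM without them. Haemoglobin and other erythroid genes summed to 11.03 and 2204 CPM, and to 10.99 and 12.5 CPM without the haemoglobin barcode and the mural members. The higher smooth muscle, pericyte and erythroid levels lay in those members. Smooth muscle, pericyte and haemoglobin genes chose those members, so the lower levels without them follow in part from the choice. Acta2, the smooth muscle actin, had a log2 ratio of 1.28 with and 0.20 without them, and Tagln of 1.24 and 0.16. Cardiomyocyte markers summed to 68.4 and 149.6 CPM over 8 genes with those members and to 64.8 and 169 CPM without them, where all 3 measured were past the fold with a median log2 ratio of 0.99, beside 2 of 3 and 0.69 with them. The higher cardiomyocyte level was thus not held by those members. Endocardial markers summed to 46.6 and 72.3 CPM over 5, platelet markers to 26.7 and 21.03 CPM over 4, mesothelial markers to 46.3 and 51.0 CPM over 4, lymphatic markers to 6.62 and 12.4 CPM over 6, and Schwann cell markers to 2.21 and 1.19 CPM over 4.

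**Figure D5:**
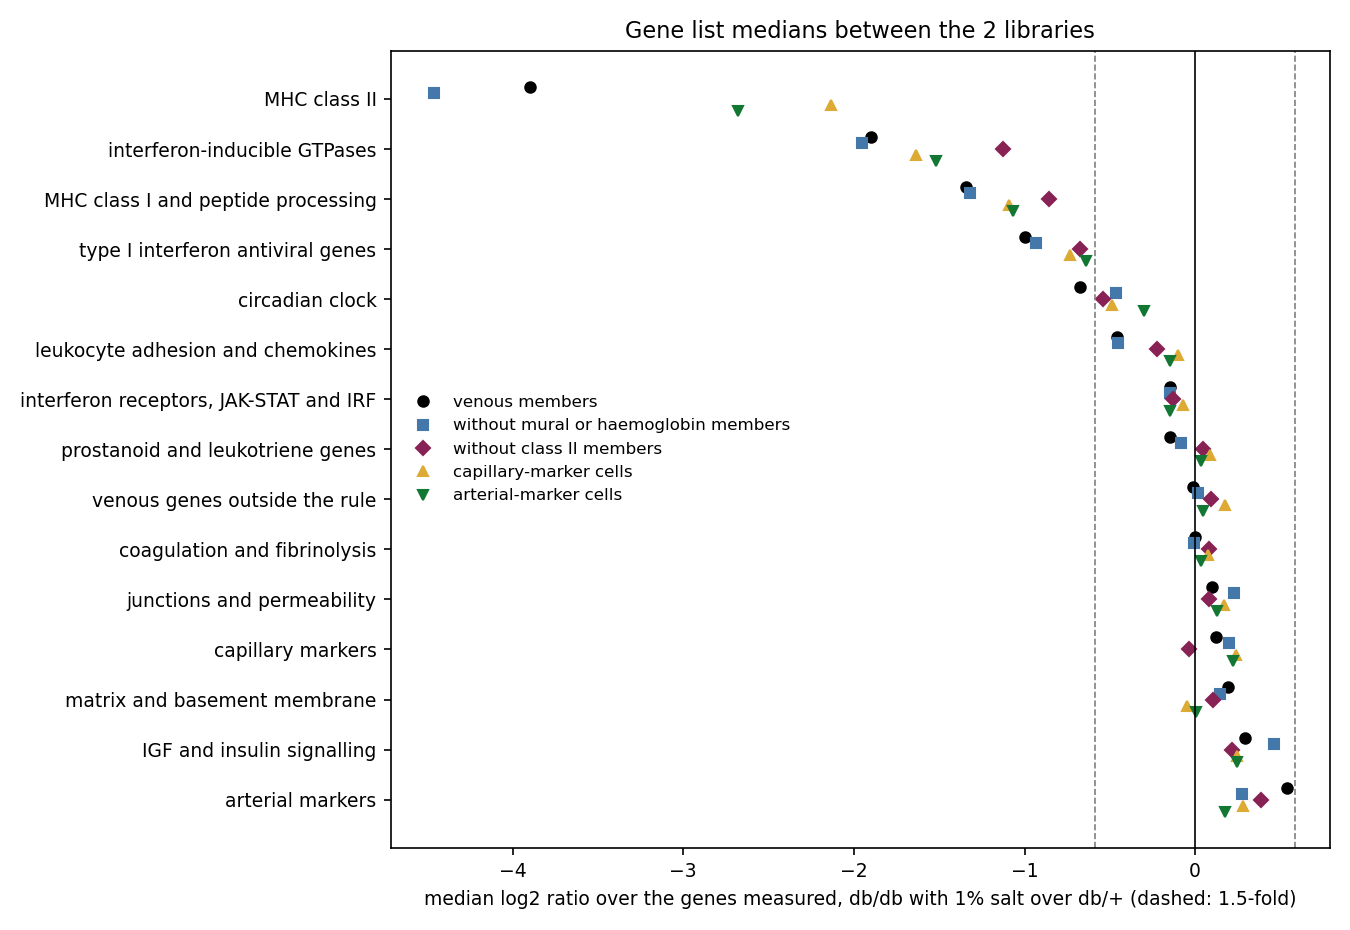
Median log2 ratio of db/db with salt over db/+ for 15 gene lists (x, log2), with separate markers for all members, members without mural or haemoglobin barcodes, members without class II-positive cells, capillary-marker cells and arterial-marker cells; dashed lines are 1.5-fold. The class II median was -3.90 in members, the GTPase median -1.90 and the coagulation median 0.00.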

How the data were processed

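The deposited files hold UMI counts per gene and cell barcode for 2 libraries, 1 of db/+ and 1 of db/db hearts with 1% salt. The authors made them with Cell Ranger 6.0.2, per the file headers, and the submitters' processing notes also name Seurat, GRCm38 and mm10. The annotation release, cell calling and doublet removal were not given in the sources used here. Unspliced reads or near-identical genes may be counted differently by another release. Of 31053 gene identifiers 31011 were matched to GENCODE M21 (GRCm38) for coordinates, and 71 entries whose symbol occurs more than once were left out.

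Barcodes with fewer than 500 detected genes or over 10% mitochondrial UMIs were left out, which kept 4948 of 5676 and 4144 of 4751. Members were found by the rule in the report. Capillary-marker, arterial-marker and fibroblast-gated cells were found by like rules on their own markers. UMIs were summed per library and cell class and scaled to CPM. A gene was measured at a mean of at least 20 CPM, and the log2 ratio used a pseudocount of 10 CPM. With 1 library per group a gene was counted as higher or lower at 1.5-fold, and no test was made. Intervals at 95% are exact Poisson for levels and exact Clopper-Pearson for shares, and a count of 0 was set to a floor of 3 UMIs. Ratio intervals apply the Clopper-Pearson formula to UMIs with those of the pseudocount added, so they are not exact. They cover the ratio of CPM + 10 and not that of the levels, which matters most for genes with few UMIs. Doublets called by Scrublet were kept, since it marked 0 members.

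The named genes are the 10 highest and 10 lowest log2 ratios of genes that reached 50 CPM, 30 UMIs and 5% of members in whichever library was higher. Genes of mitochondria, ribosomal proteins and haemoglobin, and those with Gm-number or Rik symbols, were not named by this rule. They also include the 10 genes highest and 10 lowest in members against other gated cells by their weaker library, without the genes of the rule, and up to 4 genes of each of 34 lists, and other genes named beside them were chosen after their values were seen. The members and the lists were chosen with earlier results of these data known. Alternatives were other pseudocounts, level limits, marker numbers and quality limits, TMM scaling (edgeR 4.0.16, R 4.3.3), the mean of each cell's CPM, thinning to 1500 UMIs, and members without class II or mural transcripts. Python 3.11.15, scipy 1.17.1 and scanpy 1.11.5 were used, and the ratio script was tested on simulated counts. Some listed genes and the summary of their list are not reported here.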

Additional observations from a re-analysis of the deposited data

Results flagged for a closer look

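A few log2 ratios ran opposite ways in members and in another class of endothelial cells, and the differences were not tested. Hbb-bt, a haemoglobin gene, had a log2 ratio of 4.70 in members, beside -0.60 in capillary-marker and -1.51 in arterial-marker cells. Hbb-bs had 6.23 in members beside -0.71 in arterial-marker cells, Hba-a1 5.38 beside -0.82, and Hba-a2 4.73 beside -0.84. In the db/db library 1 barcode held 7384 of the members' 7419 haemoglobin UMIs. Without it and the members with mural markers, the log2 ratios were -0.05 for Hbb-bt, -0.10 for Hbb-bs, 0.36 for Hba-a1 and -0.08 for Hba-a2. The haemoglobin genes are near-identical within each pair, so their single values are uncertain. Hist1h1b, a linker histone of dividing cells, had 0.61 in members beside -0.71 in capillary-marker cells, and 1.09 in members without mural and haemoglobin barcodes.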

How the results depend on the processing

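Under 20% mitochondrial UMIs, at least 1000 genes and removal of Scrublet calls, the shares, counts of genes and list medians moved little. The mean of each cell's CPM moved them little too, except the clock and adhesion medians (-0.41 and -0.65). TMM scaling took the genes higher in db/db from 107 to 81 and those lower from 147 to 178. The percentage higher among these genes thus went from 42.1% to 31.3%. List medians moved little with TMM, except the capillary median (0.04). With a pseudocount of 1 CPM 207 genes were higher and the class II median was -5.13. With 50 CPM, 32 were higher and 84 lower, and the medians were -2.28 for class II, -1.18 for class I, -1.33 for the GTPases, -0.67 for type I interferon genes and -0.39 for clock genes. With no level limit 172 of 15551 genes were higher, and the medians were -3.05 for class II, -1.23 for class I and -0.29 for clock genes. At 50 CPM or more, 53 were higher and 95 lower of 3618, and the clock median was -0.0649.

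With at least 4 markers the members were 5.35% and 4.94% of gated cells, the class II-positive share in db/db was 0.714% and 162 genes were lower in members than in other cells. The medians were -4.83 for class II and -2.66 for 4 proliferation genes, and the log2 ratios of Gucy1a1 (-0.21), Hba-a2 (-0.0947) and Hbb-bt (-0.16) reversed. With at least 2 markers the shares were 17.8% and 17.6%, the class II-positive share in db/+ was 32.7%, 28 genes were lower in members than in other cells, 47 were higher in db/db, and Hbb-bt (-0.0785) reversed. Without class II-positive members the medians were -0.86 for class I, -1.12 for the GTPases and -0.68 for type I interferon genes, and Ltc4s (0.0474) and Atf3 (0.0293) reversed. Without mural and haemoglobin members, chosen after seeing the data, the class II-positive share in db/db was 0.446%, 138 genes were lower in members than in other cells, and the class II median was -4.46 (-4.39 with the 3 genes at 0 put at the floor). There Pdgfrb (-0.12), Myh11 (-0.00684), Hbb-bs (-0.10), Hba-a2 (-0.0773) and Hbb-bt (-0.0543) reversed.

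When cells were thinned to 1500 UMIs before the rule, 51 of 2799 (1.82%) and 33 of 2448 (1.35%) were members, with class II-positive shares of 31.4% and 0%. Then 430 genes were higher and 435 lower in members than in other cells, 1649 were higher and 1485 lower in db/db, and the medians were -5.28 for class II, -1.15 for class I, -1.35 for the GTPases and 0.0344 for clock genes. There Spock2 (-0.34), Icam1 (0.0110), Fbln5 (-1.21), Ptger4 (-1.85), Stat2 (0.33), Irf9 (0.39), Bmp6 (-1.55), Col15a1 (0.57), Angptl4 (0.48), Atf3 (0.39), Hba-a2 (-1.85), Hbb-bt (-1.21) and Myl2 (-1.85) reversed. This setting has fewer members and few UMIs per gene by its construction, and for the other settings the cause was not tested.

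No paired analysis was possible because each group is 1 library. There are no replicates, animals cannot be told apart, and the intervals leave out the spread between animals. Genes with few UMIs cannot be ranked by their ratios, and shares of cells depend on depth.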

Other observations

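Other genes that differed between the libraries belong to no list above and were chosen after their values were seen. Ifitm3, which blocks virus entry, stood at 3452 and 1786 CPM in db/+ and db/db members, and Ly6a, or Sca-1, a surface protein of endothelium, at 2998 and 1617 CPM. Cd274, the checkpoint ligand PD-L1, stood at 98.7 and 28.7 CPM, and Tnfsf10, the death ligand TRAIL, at 234 and 102 CPM. Their log2 ratios were -0.95, -0.89, -1.49 and -1.12, and -0.74, -0.60, -0.98 and -0.52 in capillary-marker cells. Ms4a4d, a membrane protein gene named by its low ratio, gave 213 and 2 UMIs, a log2 ratio of -2.55 (-3.10 to -2.04) beside -0.93 in capillary-marker and -0.65 in arterial-marker cells.

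On the higher side, Fmo2, by which members differed from other endothelium, stood at 434 and 664 CPM, a log2 ratio of 0.60 that was 0.63 without mural and haemoglobin members and under 1.5-fold with TMM scaling. Postn, or periostin, a matrix protein, stood at 21.3 and 60.4 CPM, a log2 ratio of 1.17 and 1.48 without those members. Spock2, a secreted proteoglycan, stood at 40.2 and 108 CPM, a log2 ratio of 1.23 beside 1.71 in capillary-marker cells, and Ocel1 at 24.7 and 88.3 CPM. Hist1h2ap, a histone gene with near-identical copies, stood at 15.2 and 64.0 CPM and was found in 4.84% and 6.02% of members, so its level was held by few cells and its value is uncertain.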
